A study of Homo sapiens with 6 samples.

Results

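The kinesin-family gene KIF26B, the receptor tyrosine kinase genes ROR1 and ROR2, and 6 core planar cell polarity genes (VANGL1, VANGL2, PRICKLE1, CELSR1, CELSR2 and CELSR3) were followed in PA1 cells with and without SOX2 knockdown. These 9 genes, of 59653 gene symbols measured, were listed by name as a WNT5A-ROR effector, its receptors and core polarity genes. The list was selected on the difference between these same control and knockdown libraries, which was already known. That difference is therefore given for the 9 genes as a description, with no test.

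PA1 is an established human ovarian teratocarcinoma line; the labels give its genotype as wildtype. Adherent cells were transfected either with a negative control siRNA (small interfering RNA, which lowers a chosen transcript) or with siRNA against SOX2, a pluripotency transcription factor. The series' design text mentions 2 SOX2 siRNAs, and whether each library received both is not stated. After 24 h both groups were moved to dishes coated against attachment and grown without anchorage for 72 h before RNA extraction. Each group had 3 libraries, those with SOX2 siRNA being called knockdown libraries below. Nothing in the labels says that these came from separate cultures, so p-values measure the spread between these libraries, which may be technical.

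Planar cell polarity is the alignment of cells within the plane of a tissue. Its core consists of the seven-pass atypical cadherins CELSR1 to CELSR3, the four-pass membrane proteins VANGL1 and VANGL2 with the cytoplasmic PRICKLE proteins, and Frizzled receptors with Dishevelled proteins on the opposite side of the cell. WNT5A binds ROR1 and ROR2, which signal without beta-catenin and share components with this system. KIF26B is an atypical kinesin that acts downstream of WNT5A and ROR in cell shape and migration, and ROR signalling is known to promote breakdown of the KIF26B protein. The libraries measured RNA only.

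To set the genes beside the targeted factor, the promoter windows listed by RefSeq (GRCh38.p14, 250 bases before to 50 after each start) were searched on both strands for the short SOX-type core sequences CATTGT and CTTTGT. Windows were found for 7 of the 9 genes, VANGL1 having more than 1; KIF26B and CELSR1 had no entry. CATTGT occurred in the window of VANGL2 alone and CTTTGT in that of ROR2 alone. Both are shown as the only matches, with the matched letters in capitals, and the other strand of CATTGT reads ACAATG. The VANGL2 stretch is chr1:160400426-160400455, plus strand, with the match starting 126 bases before the start site. The ROR2 stretch is chr9:91950406-91950435, minus strand, with the match starting 195 bases before it.
VANGL2: gcggggccgcagACAATGgacgcggcggta
ROR2: ccaaggcgccacCTTTGTgttcaagcgttc
Of 35116 windows of the same length, 10.8% held CATTGT and 16.1% held CTTTGT. The TCF/LEF core CTTTGAT, the sequence through which beta-catenin signalling acts, occurred in 2.62% of all windows and in none of the 8 windows of these genes. The 8 windows were rich in G and C, from 67.0% to 79.7%, against a median of 58.7% over all windows. The GC box GGGCGG was present in 7 of the 8 windows, from 6 of the 7 genes, and in 45% of all windows. Windows of like G and C content were not compared. A match of this length describes the letters and is not evidence of binding.

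The libraries held between 25152313 and 32753184 counts. At this depth 3 counts, the smallest amount told from none, equalled 0.0909 to 0.120 CPM (counts per 1000000 of each library's scaled total); such a floor covers counting error only. SOX2 itself was counted 8093, 6647 and 7396 times in the 3 controls and 1564, 1776 and 1513 times after knockdown. Its log2 fold change (SOX2 siRNA minus control) was -2.28 (SE 0.0437; Benjamini-Hochberg adjusted p = 5.97e-16 by edgeR's quasi-likelihood test), so both groups matched their labels. Over 17592 tested genes the median log2 fold change was -0.00085. The adjusted p was under 0.05 for 28.2% of tested genes (14.8% higher and 13.4% lower), and the groups did not overlap for 41.8%.

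KIF26B was the member that differed most. Its counts were 889, 621 and 769 in the control libraries, in replicate order, and 3086, 3394 and 3049 in the knockdown libraries. Values of single libraries are given in the order of replicates 1 to 3 throughout. In scaled units these were 26.9, 24.8 and 26.6 CPM against 102.2, 105.0 and 102.1 CPM. The groups lay far apart: the lowest knockdown library exceeded the highest control library by 75.1 CPM, while the SD was 1.16 CPM in control and 1.63 CPM in knockdown libraries (n = 3). The ratio of any knockdown library to any control library was between 3.79 and 4.23. The log2 fold change was 1.98 (SE 0.0460), a 3.94-fold higher level, and 68 of the 17592 tested genes had a higher one.

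KIF26B spans 554.4 kb on the plus strand of chromosome 1 (chr1:245154985-245709431, GRCh38, GENCODE 29). Its annotated antisense transcript KIF26B-AS1 lies within the gene without sharing exons and had no count in any control library and 0, 2 and 1 counts in the knockdown libraries. No gene of that annotation shares exon sequence with KIF26B.

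**Figure D1:**
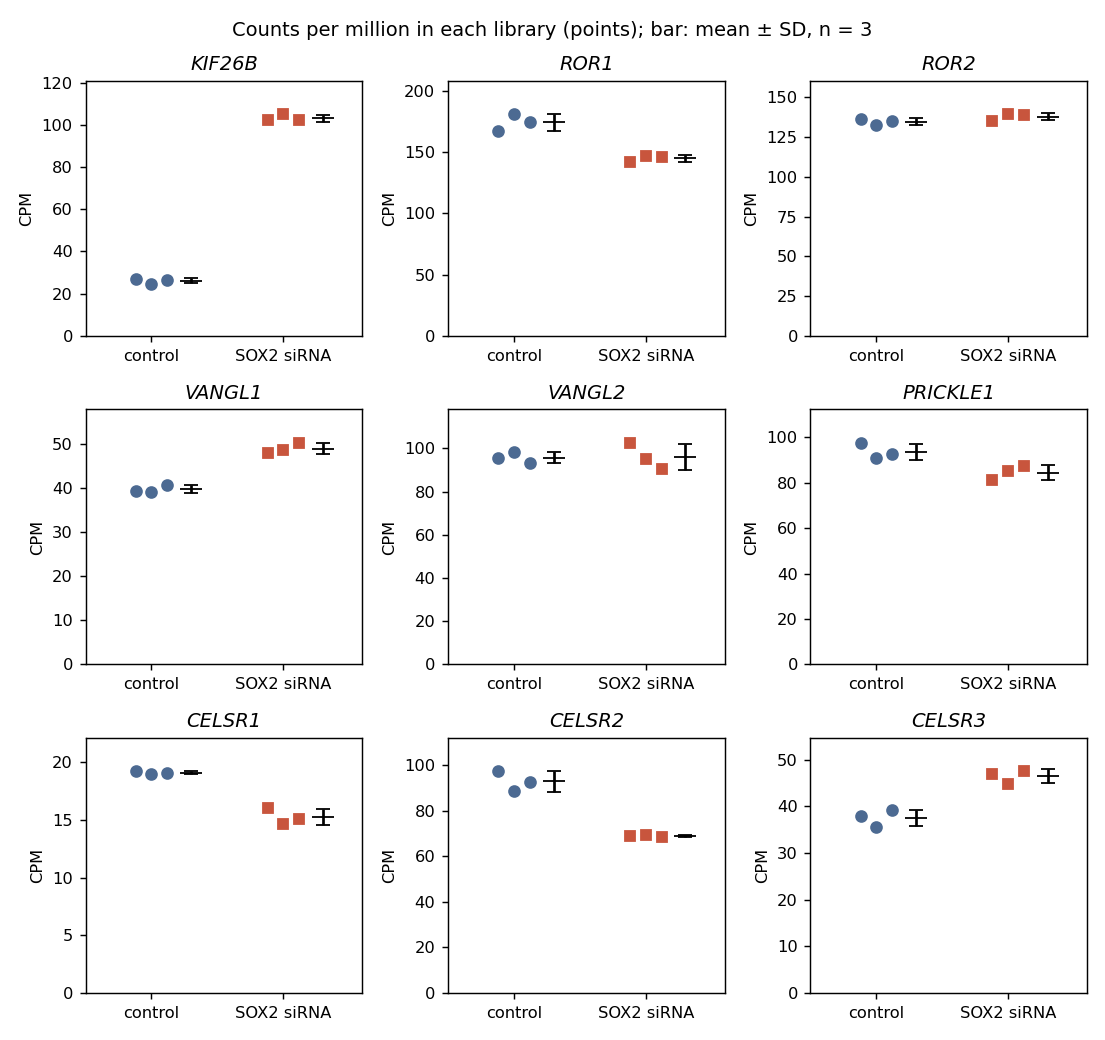
CPM (vertical axes, from 0, each on its own scale) of the 9 genes in each library: circles are the 3 control and squares the 3 knockdown (SOX2 siRNA) libraries, and the bar beside them is the mean ± SD (n = 3). KIF26B stands at 24.8 to 26.9 CPM in control and 102.1 to 105.0 CPM in knockdown libraries, while ROR2 and VANGL2 overlap between groups.

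The 2 ROR receptor genes differed in pattern. ROR1 (chr1:63774022-64181498, plus strand), a WNT5A receptor of embryonic tissue that many tumours also express, was measured at 167, 181 and 175 CPM in the controls. In knockdown replicates 1 to 3 it was at 142, 147 and 146 CPM. Every knockdown library lay below every control library, by at least 20.2 CPM, and the log2 fold change was -0.27 (SE 0.0385), or 83.2% of the control level. The antisense gene ROR1-AS1, which shares no exon sequence with ROR1, had at most 4 counts in any library.

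ROR2 (chr9:91563091-91950162, minus strand), the paralogue best known from skeletal development, was at 137, 133 and 135 CPM in the controls. It was at 135, 139 and 139 CPM after knockdown. The groups overlapped, and the log2 fold change was 0.03 (SE 0.0357). Per kilobase of annotated exon, ROR1 made up 52.8% ± 1.35 of the ROR1 and ROR2 total in control and 47.7% ± 0.0869 in knockdown libraries (SD, n = 3). The summed level of both was 49.1 ± 0.685 against 45.3 ± 0.805 CPM per kilobase, so the lower sum went with ROR1.

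The VANGL genes, which encode the membrane partners of PRICKLE, also differed from each other. VANGL1 (chr1:115641953-115698224, plus strand) was at 39.4, 39.0 and 40.7 CPM in the controls. It was at 47.8, 48.5 and 50.2 CPM after knockdown, above every control library. Its log2 fold change was 0.30 (SE 0.0458), a 1.23-fold higher level.

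VANGL2 (chr1:160400586-160428678, plus strand), whose mouse counterpart is the classical loop-tail gene of neural tube closure, was at 95.7, 98.3 and 93.0 CPM in the controls. It was at 102.6, 95.2 and 90.5 CPM after knockdown, so the knockdown libraries enclosed the control range. The log2 fold change was 0.0066 (SE 0.0460), with a sign that turned under upper-quartile scaling and when single libraries were left out. VANGL2 supplied most VANGL RNA per kilobase in both groups, 80.3% ± 0.785 in control and 76.9% ± 1.55 in knockdown libraries (SD, n = 3).

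PRICKLE1 (chr12:42456757-42590355, minus strand) encodes a cytoplasmic LIM-domain protein that binds VANGL proteins. Its levels were 97.6, 90.8 and 92.7 CPM in the controls and 81.0, 85.1 and 87.4 CPM after knockdown. The groups did not overlap, though the gap was 3.40 CPM against SDs of 3.54 and 3.21 CPM, and the log2 fold change was -0.15 (SE 0.0430). PRICKLE1 shares 438 exonic bases with PPHLN1 and 1858 with AC079601.1, both on the opposite strand, and whether counting used strand is not given in the sources used here. PPHLN1 was at 75.4 to 83.7 CPM in control and 77.4 to 80.0 CPM in knockdown libraries, and AC079601.1 had at most 17 counts.

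The CELSR genes encode the cadherins that bridge neighbouring cells, and they split in direction. CELSR2 (chr1:109250019-109275750, plus strand) was at 97.4, 88.6 and 92.7 CPM in the controls and at 68.7, 69.2 and 68.4 CPM after knockdown. The lowest control library exceeded the highest knockdown library by 19.3 CPM. Its log2 fold change of -0.43 (SE 0.0428), or 74.0% of control, was the lowest of the 9 genes.

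CELSR1 (chr22:46360834-46537170, minus strand) was at 19.2, 19.0 and 19.1 CPM in the controls and at 16.0, 14.6 and 15.1 CPM after knockdown. These groups did not overlap either, and the log2 fold change was -0.33 (SE 0.0637). CELSR3 (chr3:48636469-48662915, minus strand), known mainly from axon tracts of the brain, went the other way. It was at 37.8, 35.6 and 39.1 CPM in the controls and at 47.0, 44.7 and 47.5 CPM after knockdown. Its log2 fold change was 0.30 (SE 0.0501), with no overlap of the groups. A microRNA gene, MIR4793, lies in a CELSR3 exon and had no count in any library.

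Within the CELSR family the composition therefore differed between groups. Per kilobase of exon, CELSR2 made up 64.2% ± 0.822 of the total in control and 55.1% ± 0.965 in knockdown libraries. CELSR3 made up 23.1% ± 0.705 and 33.1% ± 0.738 (SD, n = 3). CELSR2 remained the most abundant of the family in each library, and the family sum was 11.7 ± 0.457 against 10.1 ± 0.123 CPM per kilobase.

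**Figure D2:**
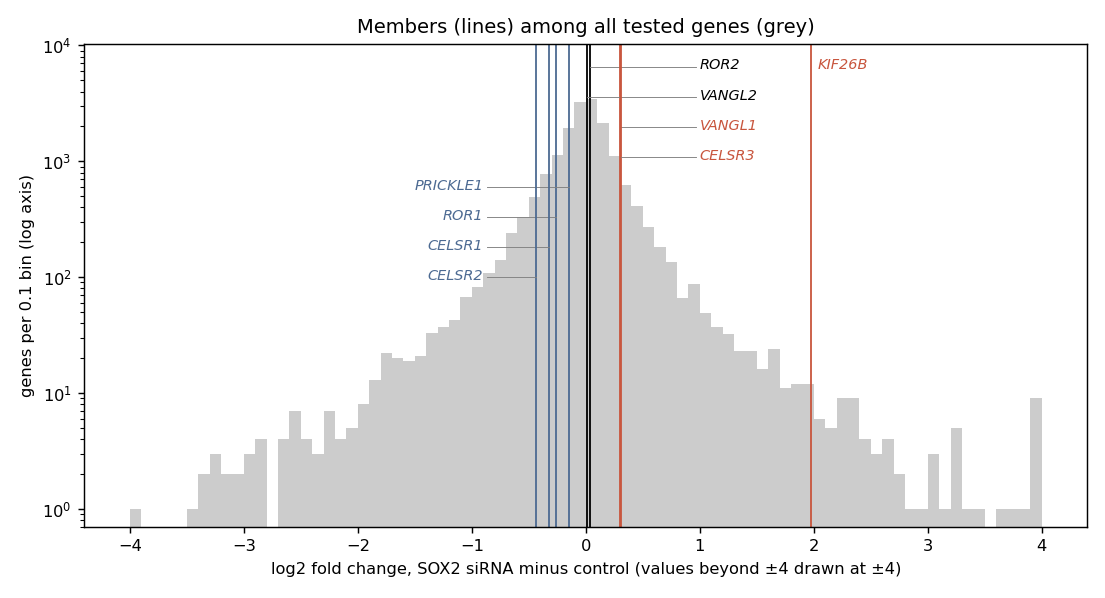
Histogram of the log2 fold change of all tested genes (horizontal axis, SOX2 siRNA minus control; vertical axis, number of genes on a log scale), with a line at each of the 9 genes. KIF26B stands in the sparse upper tail at 1.98, and the other 8 lie between -0.43 and 0.30.

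Taking all 9 genes, 7 had groups that did not overlap, against 41.8% of tested genes; since the list was drawn up from this contrast, nothing is read from this count. Of those 7, KIF26B, VANGL1 and CELSR3 were higher and ROR1, PRICKLE1, CELSR1 and CELSR2 lower. All 9 passed the filter on low counts. Apart from KIF26B the differences were small: 16.0% of tested genes had a larger difference in either direction than CELSR2, and 97.3% had a larger one than VANGL2. Replicates of a group had coefficients of variation of CPM from 0.607% (CELSR2, SOX2 siRNA) to 6.34% (VANGL2, SOX2 siRNA). In control libraries CELSR1 had 0.733%, where counting error alone gives 4.25%. ROR2 and VANGL1 also lay below counting error there, and the other members above it. With 3 libraries, spreads below counting error understate the uncertainty.

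Compared per length, the genes also changed order. In control libraries ROR1 and ROR2 led with 25.9 ± 1.02 and 23.1 ± 0.345 CPM per kilobase of exon. VANGL2 followed at 17.9 ± 0.492, PRICKLE1 at 11.4 ± 0.429, CELSR2 at 7.52 ± 0.358 and VANGL1 at 4.38 ± 0.0992. CELSR3, KIF26B and CELSR1 were lowest, at 2.704 ± 0.128, 1.81 ± 0.0802 and 1.49 ± 0.0109 (SD, n = 3). No neighbours in this order overlapped between their control libraries. The order of ROR1 and ROR2 depended on the length used: divided by the longest coding transcript, a choice made after seeing the data, they stood at 29.9 and 32.9. The other 7 kept their places under either length.

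After SOX2 siRNA, KIF26B stood at 7.16 ± 0.113 CPM per kilobase and moved from the eighth to the fifth place, above CELSR2 at 5.57 ± 0.0338 and VANGL1 at 5.39 ± 0.137. The ranges of CELSR2 and VANGL1, 5.54 to 5.61 and 5.28 to 5.54, met at their ends, so these neighbours were not separated beyond their spread. ROR2 at 23.7 ± 0.382 was above ROR1 at 21.6 ± 0.423, and CELSR1 remained lowest at 1.19 ± 0.0558.

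**Figure D3:**
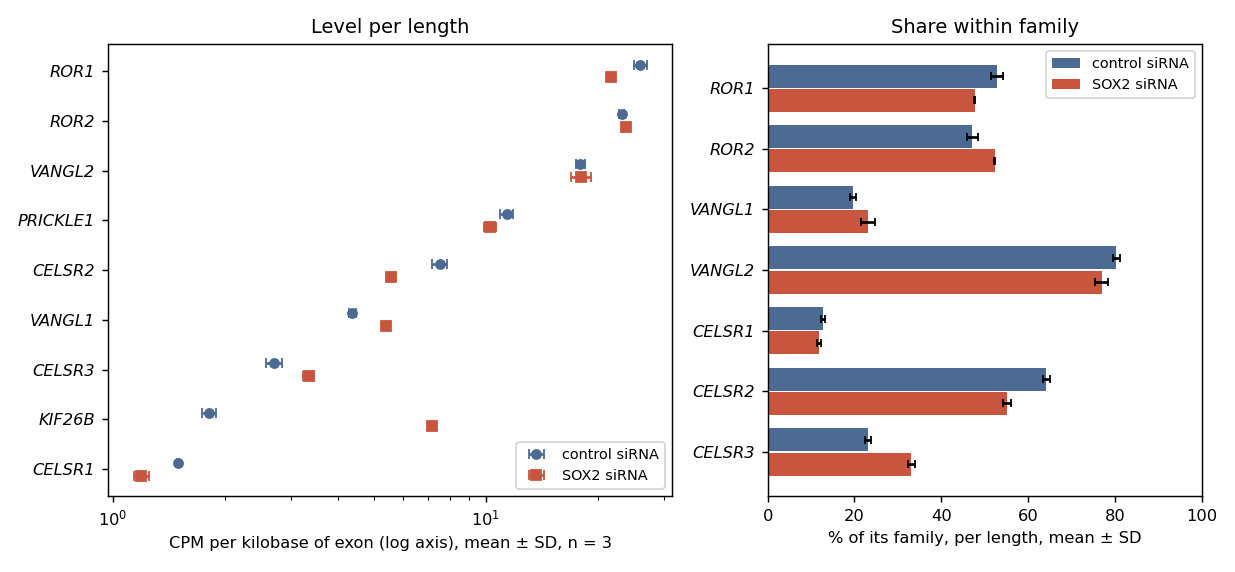
Left, CPM per kilobase of exon (log axis) of each gene in control (circles) and knockdown libraries (squares), mean ± SD, n = 3; right, the share of each gene in its family's summed level per kilobase, mean ± SD. KIF26B moves from 1.81 to 7.16, and the CELSR3 share from 23.1% to 33.1%.

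The neighbouring parts of the pathway were examined through 56 other genes, listed by role from general knowledge with earlier results of these data known. Of these, 51 passed the filter on low counts. An adjusted p under 0.05 (edgeR, adjusted over all tested genes) was reached by 25 of the 51, or 49.0%, against 28.2% of all tested genes, with 13 higher and 12 lower. Their median log2 fold change was 0.02, against -0.00085 over all tested genes. Of these called genes 1, FZD8, had at least a 2-fold change, and it fell. KIF26B had a larger change than each of the 51. It came from a list selected on this same contrast, so nothing is read from its place. Since the list of 56 was drawn up with earlier results known, it is not independent of these data. Its expression levels were not matched to those of all tested genes. Nothing is therefore read from the share of 49.0% against 28.2%. The counts by role given below stand against the same 28.2% of all tested genes, with the same limits.

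Among the ligand genes 2 of 5 tested passed, in opposite directions. WNT5A, the ligand of ROR1 and ROR2, fell from 35.3 ± 0.482 to 28.4 ± 0.873 CPM (edgeR log2 fold change -0.31, SE 0.0502; adjusted p = 1.37e-04). Its close relative WNT5B rose from 8.33 ± 0.125 to 9.997 ± 0.311 CPM (log2 fold change 0.26; edgeR adjusted p = 0.0218), a call lost in 4 of the 6 fits that each left out a library. Those were the fits without control replicate 2 (adjusted p = 0.0643), control replicate 3 (0.0542), knockdown replicate 1 (0.0618) and knockdown replicate 3 (0.0524); DESeq2's Wald test gave 0.121. WNT11, named after its values were seen, acts in convergent extension; it had a log2 fold change of 0.65 with an SE of 0.246 and did not pass (edgeR adjusted p = 0.0573), except with a filter of at least 10 counts in every library (0.0357).

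Of 13 tested Frizzled and co-receptor genes, 4 rose and 4 fell. FZD3 and FZD7, Frizzled receptors with known roles in polarity and gastrulation movements, fell with log2 fold changes of -0.47 and -0.37 (edgeR adjusted p = 7.03e-08 and 2.30e-07). FZD8 fell from 2.34 ± 0.323 to 1.08 ± 0.165 CPM (log2 fold change -1.11; edgeR adjusted p = 4.66e-04). FZD2 and the glypican gene GPC4 rose, by 0.34 and 0.37 on the log2 scale (edgeR adjusted p = 9.67e-05 and 3.63e-06). The WNT co-receptor genes PTK7 and RYK, named after their values were seen, had log2 fold changes of 0.01 and -0.0032 and did not pass.

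The cytoplasmic partners differed little. Among 7 tested genes only ANKRD6, the homologue of the Drosophila gene diego, passed, falling by 0.19 on the log2 scale (edgeR adjusted p = 0.00629). The Dishevelled genes DVL1, DVL2 and DVL3, named after their values were seen, had log2 fold changes of 0.08, 0.04 and -0.0076, and PRICKLE2, also named after its values were seen, one of -0.09; none of these passed.

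Genes of the Fat and Dachsous cadherin system, a second polarity pathway, passed in 6 of 6 tested cases, 3 higher and 3 lower. Of all tested genes, 28.2% passed. DCHS1, encoding a ligand cadherin, rose from 56.1 ± 3.49 to 85.3 ± 3.69 CPM (log2 fold change 0.60; edgeR adjusted p = 5.99e-08). FAT4, its receptor, fell from 45.9 ± 2.19 to 35.6 ± 0.580 CPM (log2 fold change -0.36; edgeR adjusted p = 2.30e-05). FAT2 and FAT3 rose by 0.57 and 0.29 on the log2 scale, and FAT1 fell by 0.17. Among 5 genes of the ciliary polarity effectors, INTU alone passed (log2 fold change -0.23; edgeR adjusted p = 0.0464). Its call was lost without control replicate 1 (adjusted p = 0.113), control replicate 2 (0.187), control replicate 3 (0.135) or knockdown replicate 2 (0.0767), and with upper-quartile scaling (0.0567).

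Of 14 genes for trafficking, kinases and ubiquitin ligases, 5 rose and 2 fell. NEDD4, a ubiquitin ligase reported to act on KIF26B protein, rose from 55.7 ± 1.36 to 80.8 ± 2.22 CPM (log2 fold change 0.54; edgeR adjusted p = 3.21e-08). MINK1, NEDD4L and CSNK1E rose by 0.25, 0.18 and 0.15, though CSNK1E lost its call without knockdown replicate 2 (adjusted p = 0.0565). RNF43, a ubiquitin ligase that removes Frizzled receptors from the surface, fell from 61.4 ± 2.11 to 45.2 ± 2.15 CPM (log2 fold change -0.44; edgeR adjusted p = 1.77e-06). KIF26A, the paralogue of KIF26B, likewise named after its values were seen, was at 12.7 ± 1.37 and 11.02 ± 0.839 CPM (log2 fold change -0.21, SE 0.0889) and did not pass (edgeR adjusted p = 0.0925). Exons of ANKRD6, DCHS1, DVL1, FAT2, MINK1, NEDD4L, PRICKLE2, RNF43 and WNT11 overlap a gene on the opposite strand, and those of CSNK1E, RNF43, DVL1 and FZD8 one on the same strand, which makes their counts uncertain to that extent.

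**Figure D4:**
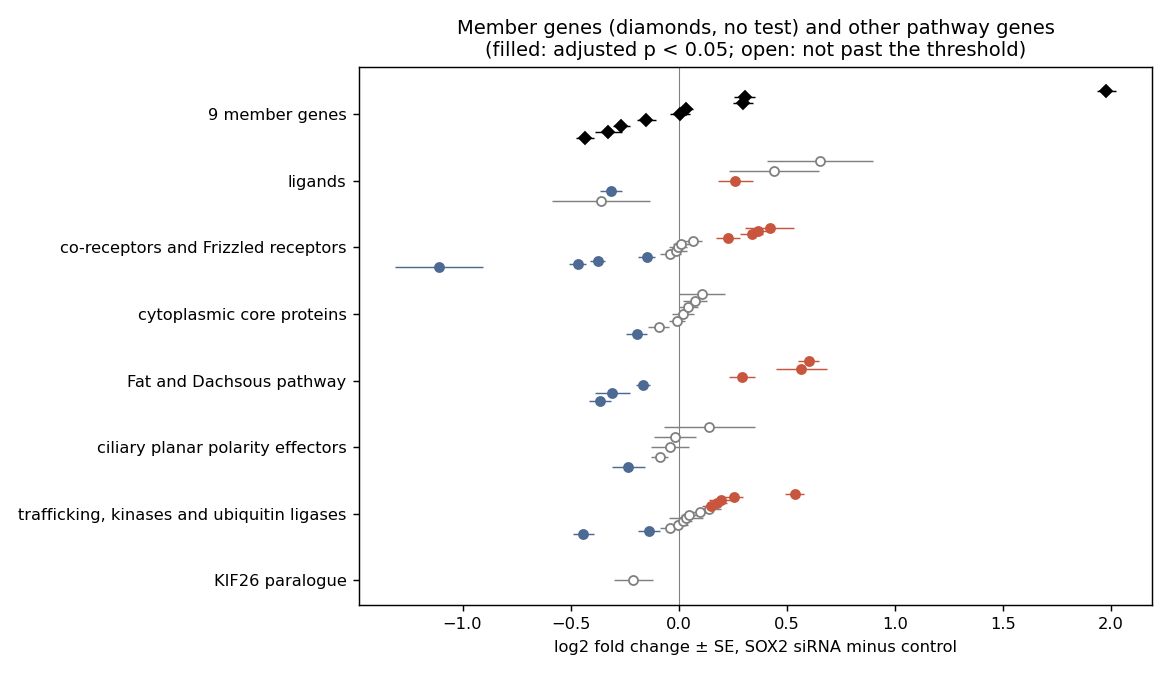
Log2 fold change ± SE (SOX2 siRNA minus control) of the 9 genes (diamonds, no test) and of 51 other pathway genes by role (filled circles, adjusted p under 0.05; open circles, above it). Each role group of more than 1 gene lies on both sides of 0, and KIF26B at 1.98 lies beyond all of them. KIF26B came from a list selected on this same contrast, so nothing is read from its place.

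By the likeness of log2 CPM over the 6 libraries, the genes most like KIF26B among 12118 whose log2 CPM averaged 2 or more were PDGFRB, NTM, COL2A1, DPYSL2 and FRZB (Pearson r from 0.9995 to 0.9999). The most opposite were SLC1A2, ADAM23, NRCAM, ILDR2 and NSMAF (r from -0.9999 to -0.9995). The points share 2 groups of 3 libraries, so these values mostly restate the group difference. Likeness in pattern went with changes of differing size. The log2 fold change was 1.89 for PDGFRB, a receptor of mesenchymal cells, close to the 1.98 of KIF26B. For DPYSL2 it was 0.32. Among the most opposite genes it was -2.09 for the glutamate transporter gene SLC1A2.

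Markers of cell identity also differed between the groups. The counts below are of genes with an adjusted p under 0.05 (edgeR), which 28.2% of all tested genes had. Of 12 pluripotency markers 10 were tested; POU5F1, LIN28A, LIN28B and DNMT3B rose, SOX2, PODXL and NANOG fell, and TDGF1 and ZFP42 had too few counts to test. PODXL, the most abundant of them in control libraries, fell from 1316 ± 15.0 to 671 ± 25.1 CPM, and NANOG from 0.820 ± 0.130 to 0.216 ± 0.0425 CPM, while LIN28A rose from 706 ± 3.61 to 1148 ± 10.4 CPM (SD, n = 3). The summed list was at 3044 to 3096 CPM in control and 2824 to 2888 in knockdown libraries. This sum includes the siRNA target SOX2, which alone fell from 255.4 ± 10.1 to 52.5 ± 2.21 CPM. The lower sum is therefore not read as a fall of the other pluripotency markers. Mesendoderm markers summed to 12.1 to 12.9 and 63.7 to 72.1 CPM; 4 of 5 tested (EOMES, CER1, MIXL1 and TBX6) rose, FOXA2, GSC, MESP1 and SOX17 had too few counts to test, and TBXT was at 0 throughout. Neural progenitor markers summed to 1092 to 1110 and 732 to 744 CPM, with 1 higher and 5 lower of 9 tested and SOX1 at 0. Fibroblast markers summed to 300.5 to 350.1 and 465 to 512 CPM, with PDGFRB and COL1A1 of 4 tested higher and DCN at 9 counts in all libraries together. Keratin epithelial markers summed to 345 to 389 and 477 to 512 CPM (KRT8 and KRT18 of 5 tested higher, KRT14 at 0), and endothelial markers to 126 to 131 and 94.8 to 98.7 CPM (5 of 5 tested lower). Leukocyte markers did not exceed 1.57 CPM in sum, with CD14 of 2 tested higher. The part of these shifts in the values of KIF26B, ROR and polarity genes was not tested, and in bulk RNA a changed share of cells and a changed amount per cell cannot be told apart.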

How the data were processed

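The authors deposited a table of raw counts per gene symbol, 1 column for each of 6 libraries, in whole numbers with unequal totals. RNA was extracted with Trizol and libraries made with a KAPA mRNA HyperPrep kit, per the labels' protocols. Per the submitters' processing notes, bcl2fastq 2.20.0, STAR 2.7.3a, Salmon 0.14.1, DESeq2 1.28.1 and GRCh38.p13 were used, in roles that the notes do not give; use of strand is not given in the sources used here. Columns were matched to libraries by description, and groups and replicate numbers taken from titles.

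Genes were kept by filterByExpr (minimum count 10), scaled by TMM and tested with edgeR 4.0.16 in R 4.3.3 (quasi-likelihood F-test, robust, Benjamini-Hochberg over 17592 genes, threshold 0.05); CPM uses the scaled library sizes. Alternatives used DESeq2 1.42.0 and limma 3.58.1. On simulated counts for this comparison over 17325 genes, 86.9% of 2-fold and 63.5% of 1.5-fold changes were recovered and 2% of calls were false. Only 195 of those genes were changed, far fewer than the 4964 called in the data, so these rates may differ there. Replicates differed by more than counting noise (chi-square per degree of freedom 2.77 to 5.91).

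Exon lengths, overlaps and gene positions came from GENCODE 29 (GRCh38), promoters from RefSeq (GRCh38.p14). The genes and lists were chosen with earlier results of these data known. Named were the 9 genes, SOX2, at most 5 called genes per role list by smallest p, the 5 genes most and 5 least like KIF26B, and others said to be chosen later; 1 further role list is not reported here.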

Additional observations from a re-analysis of the deposited data

How the results depend on the processing

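For KIF26B the log2 fold change stayed between 1.95 and 2.00 under 13 alternatives, and the sign held in all 13 for each of the 7 members other than KIF26B and VANGL2. VANGL2 changed sign with upper-quartile scaling (-0.0130) and ranged from -0.0463 to 0.0450 when 1 library was left out. Its SE in the main fit was 0.0460. SOX2 ranged from -2.32 to -2.25. Upper-quartile scaling moved the split of all calls from 2599 higher and 2365 lower to 2311 and 2734, with a median log2 fold change of -0.0211. The other pathway genes gave 20 to 26 calls in all, against 25. The labels do not say that same-numbered libraries were paired: their deviations correlated at 0.0868, -0.0377 and -0.0311, and the replicate block gave 26 pathway calls and 5177 over all genes, against 4964. Of 351 values for 27 named pathway genes, 11 lost a call, 1 gained one and 7 changed sign, all of genes near 0: PTK7 at -0.0070 with upper-quartile scaling and -0.0189 to 0.0359 with 1 library left out, RYK at 0.0033 with no filter and -0.0259 to 0.0153 with 1 left out, and DVL3 at -0.0271 to 0.0056 with 1 left out. The cause was not tested. WNT4, CTHRC1, MUSK, DCHS2 and PRICKLE4 had too few counts to test, and whether depth or lack of expression was the reason was not tested.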

Other observations

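KIF26B was set beside the other kinesin genes, a family chosen after its values were seen by symbols made of KIF and a number. Of 40 such symbols 36 were tested. KIF26B itself came from a list selected on this same contrast, so nothing is read from its place among these. Among the 35 others, 4 rose and 7 fell (edgeR, adjusted p under 0.05 over all tested genes), against 28.2% of all tested genes in either direction. Their median log2 fold change was 0.0077 and their range -0.47 to 0.64, and none had a change as large as that of KIF26B. The highest was KIF21B, which encodes a motor abundant in neurons; it rose from 9.08 ± 0.843 to 14.2 ± 1.13 CPM (SD, n = 3), a log2 fold change of 0.64 (SE 0.0872). KIF5C, a heavy chain gene of conventional kinesin, rose from 134.8 ± 2.96 to 187 ± 1.96 CPM (log2 fold change 0.47). The lowest was KIF21A, which fell from 46.1 ± 0.891 to 33.3 ± 0.185 CPM, a log2 fold change of -0.47 (SE 0.0459).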
